A study of Saccharomyces cerevisiae with 12 samples.

Results

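The genes described here encode the first steps of sugar use in budding yeast (Saccharomyces cerevisiae), from the phosphorylation of hexoses to the phosphofructokinase step of glycolysis and the enzymes that make its activator. They are 8 of 5859 measured features, a feature being a gene or a set of genes that share a probe set. The members are HXK1, HXK2, GLK1, PGI1, PFK1, PFK2, PFK26 and PFK27, and each was taken from a probe set assigned to that gene alone. Each had 1 such probe set. GLK1 had a further probe set shared with YCL042W, with signals of 1.8 to 186.4, which was not used. Of the 8 members, 7 passed the filter on dim features and were tested, and PFK27 did not pass and is described by its signals only.

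Total RNA was measured on 12 1-colour Affymetrix arrays in 4 groups of 3 arrays, numbered 1 to 3 in the labels. The groups are a rap1 temperature-sensitive (ts) mutant, its wild-type control, an abf1 ts mutant and that mutant's own wild-type control. Cultures of all 4 groups grew at 25 C and spent 1 h at 37 C before RNA isolation, so the controls carry the heat shift too. Per the labels, both ts proteins stop binding DNA at 37 C; the alleles, strain background and medium are not named there. Nothing says that the 3 arrays of a group came from separate cultures, so the p-values measure spread that may be technical.

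Hexokinases trap sugar in the cell by phosphorylating it. Hxk2 is the main hexokinase of yeast growing on glucose and is also known for a role in glucose repression, the shutting off of genes for other sugars, while HXK1 and the glucokinase gene GLK1 are known as genes that glucose represses. Pgi1 then converts glucose 6-phosphate to fructose 6-phosphate, and phosphofructokinase, built from the subunits Pfk1 and Pfk2, commits the sugar to glycolysis. Pfk26 and Pfk27 make fructose 2,6-bisphosphate, which activates that enzyme. Rap1 is known to bind the promoters of many glycolytic genes, where it acts with Gcr1 and Gcr2. Abf1 is another general promoter-binding factor.

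The values are MAS5 signals, an intensity per probe set on a linear scale. Differences are on the log2(signal + 13) scale and were tested with limma over 4687 features. Since each array was scaled to a common mean, a change is relative to the other RNAs of that array, and in whole cultures fewer expressing cells and less RNA per cell cannot be told apart. A feature was called at a Benjamini-Hochberg adjusted p under 0.05. Arrays of equal number within a series deviated together (correlations of 0.25 to 0.824 across features). The correlations were 0.562, 0.25 and 0.583 for rap1 pairs 1 to 3 and 0.574, 0.824 and 0.648 for the abf1 pairs. Each change is thus given without and with the number as a replicate block. Signal along control transcripts was compared between groups. The 3' to 5' signal ratio of ACT1, the actin gene, was 18.2, 6.58 and 2.56 in the wild type and 48.4, 20.1 and 28.0 in rap1 ts, against 8.73, 11.4 and 17.4 in the abf1 wild type and 32.7, 3.47 and 4.41 in abf1 ts. The ACT1 groups of the rap1 series stood apart (exact permutation p = 0.1, which 3 against 3 arrays cannot go below). Those of SPT15 did too, with geometric means of 4.98 and 15.9 (exact permutation p = 0.1). SPT15 had 7.08, 5.87 and 2.97 in the wild type and 56.9, 8.91 and 7.87 in rap1 ts, so array 1 raised the ts mean most. Those of SRB4 overlapped (geometric means of 46.4 and 228, exact permutation p = 0.2). The part of these ratios in the results below was not tested. Rap1 ts array 1 held the lowest of the 12 values for 6 of the 8 members and for 27.8% of all features kept. That array also held the highest value for 0 members and 18.1% of features. Rap1 wild-type array 2 held the lowest for 1 member and 26.5% of features.

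In rap1 ts the RNA of the main hexokinase HXK2, of PGI1 and of the phosphofructokinase subunits PFK1 and PFK2 fell with the replicate block, by 4.29-fold, 4.07-fold, 3.67-fold and 2.30-fold. The other sugar kinase genes, HXK1 and GLK1, were not called, and neither was PFK26. Without the block none of the 7 tested members was called. In abf1 ts none was called with or without the block.

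HXK2 had signals of 3098, 8271 and 8987 on wild-type arrays 1 to 3 of the rap1 series and of 623.1, 1960 and 2327 on the rap1 ts arrays. Every ts array was below every wild-type array, and array 1 was the lowest of both groups. Each ts array lay below its wild-type partner by a similar ratio of 4.97, 4.22 and 3.86. The means were 6786 ± 3213 (SD, n = 3) and 1637 ± 897 (SD, n = 3), a log2 fold change of -2.10 (SE 0.53, limma adjusted p = 0.104; with the block SE 0.31, adjusted p = 0.00584). With the block the 95% interval ran from -2.79 to -1.41. Only 0.405% of the 4687 features had a lower fold change in this comparison.

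HXK1, which encodes the closely related second hexokinase, had 4503, 2666 and 4207 in the rap1 wild type and 5166, 5473 and 3425 in rap1 ts. The groups overlapped, with arrays 1 and 2 higher in the mutant and array 3 lower. The log2 fold change was 0.31 (SE 0.70, limma adjusted p = 0.815; with the block SE 0.23, adjusted p = 0.334), with a blocked 95% interval from -0.20 to 0.82. This blocked interval lies wholly above that of HXK2. Without the block the intervals overlap, at -1.20 to 1.83 for HXK1 and -3.25 to -0.95 for HXK2.

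GLK1, the glucokinase gene, had 3120, 2480 and 4738 in the rap1 wild type and 867.0, 4463 and 2685 in rap1 ts. The pairs disagreed: arrays 1 and 3 were lower in the mutant and array 2 was higher, by 1.80-fold. The log2 fold change was -0.60 (SE 0.53, limma adjusted p = 0.505; with the block SE 0.41, adjusted p = 0.287), with a blocked interval from -1.50 to 0.30. Its value turned on single pairs: with the block it was 0.01 without pair 1 (adjusted p = 0.979) and -1.32 without pair 2 (adjusted p = 0.0157).

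**Figure D1:**
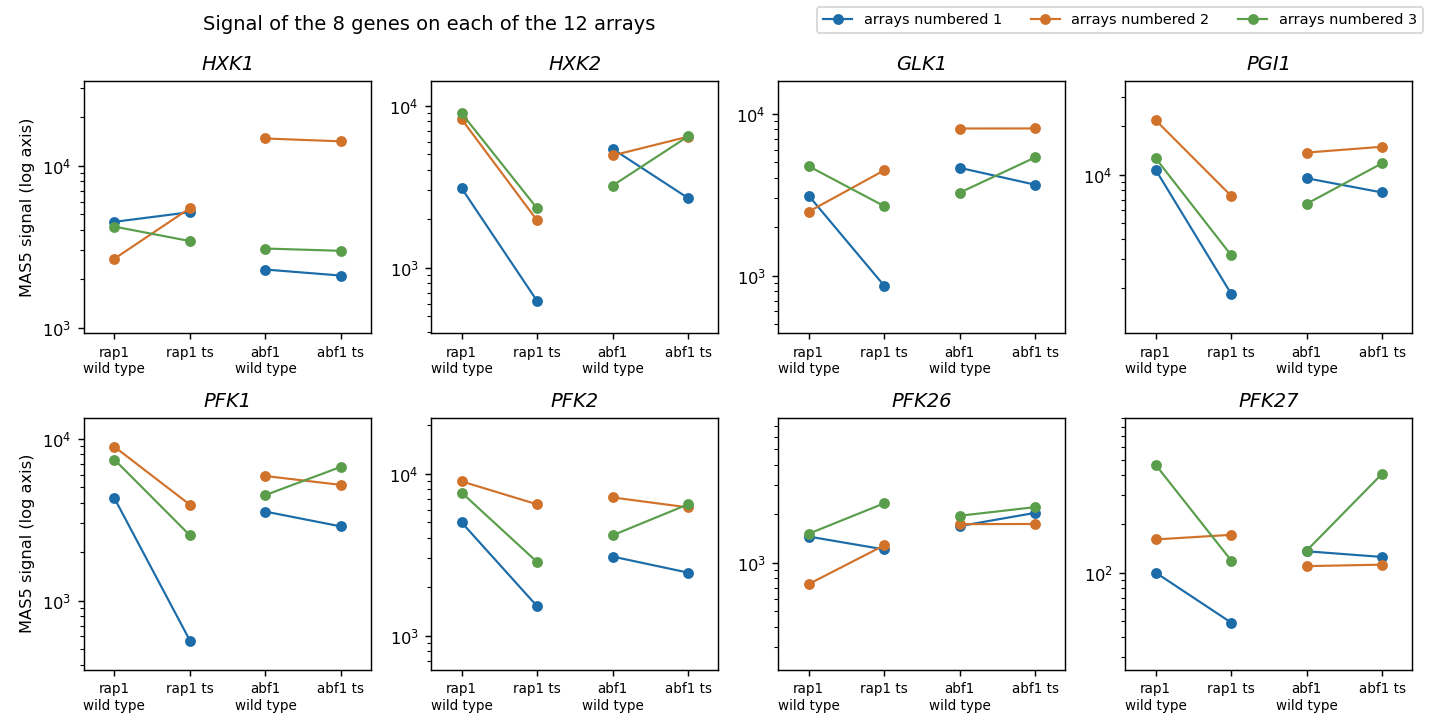
MAS5 signal (log axis, its range set for each gene) of the 8 genes on the 12 arrays, by group, with a line joining the wild-type and ts array of equal number in a series. HXK2, PGI1, PFK1 and PFK2 slope down in all 3 rap1 pairs, and HXK1 stands at 14145 to 14731 on both abf1-series arrays numbered 2.

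HXK1, HXK2 and GLK1 were then compared on the same array, which removes any scaling of whole arrays. A log2 ratio between probe sets has no meaning as a level, since probe sets differ in brightness, and only its difference between groups is read. The HXK1 to HXK2 log2 ratio was 0.54, -1.63 and -1.09 in the rap1 wild type and 3.03, 1.48 and 0.55 in rap1 ts. It was higher in the mutant in all 3 pairs, by 2.49, 3.10 and 1.65, and the groups did not overlap, although wild-type array 1 and ts array 3 stood close together. The mean difference was 2.41 (ratio 5.33-fold higher; pooled SD 1.19; 2-sided exact permutation p = 0.1, the smallest that 3 against 3 arrays can give; 0.3 adjusted over the 6 ratio tests).

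The GLK1 to HXK2 log2 ratio was 0.01, -1.73 and -0.92 in the rap1 wild type and 0.47, 1.18 and 0.21 in rap1 ts. Again all 3 pairs were higher in the mutant and the groups did not overlap, with a mean difference of 1.50 (pooled SD 0.71, exact permutation p = 0.1, adjusted 0.3). The pairs differed in size, with 0.46, 2.91 and 1.13. The HXK1 to GLK1 ratio overlapped between the groups, at 0.53, 0.10 and -0.17 against 2.56, 0.29 and 0.35, with a mean difference of 0.91 (exact permutation p = 0.3, adjusted 0.6). It too was higher in the mutant in all 3 pairs, by 2.03, 0.19 and 0.52. No ratio passed a test at this number of arrays, and a ratio does not show that either gene stayed level. In abf1 ts the same 3 ratios differed from the wild type by -0.20, -0.0028 and -0.20 in that order (exact permutation p = 0.8, 1 and 0.9), and all overlapped.

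**Figure D2:**
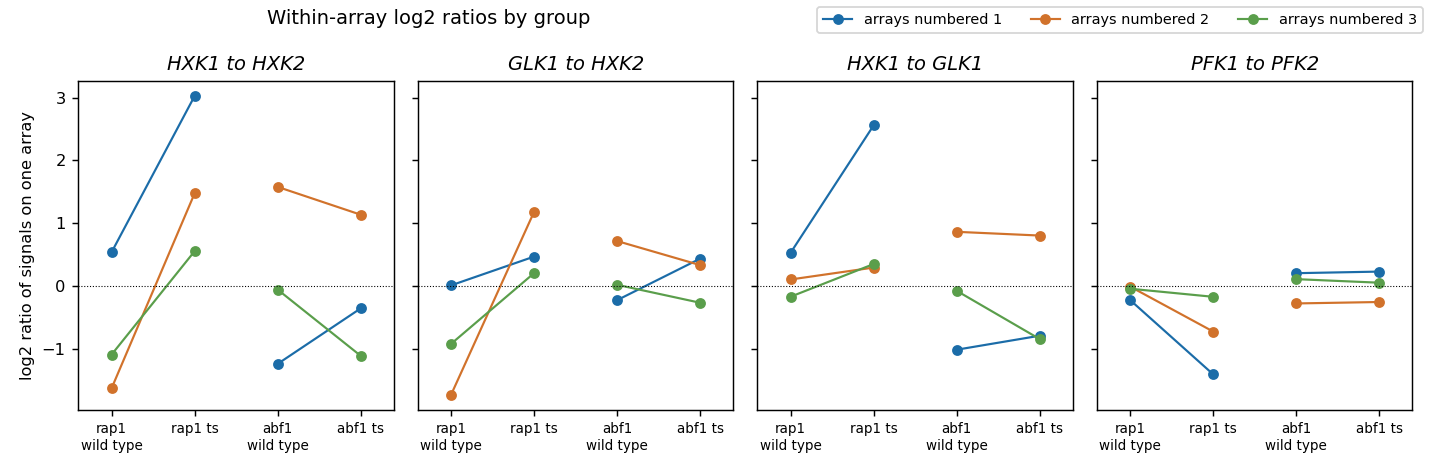
Log2 ratio of signals on the same array (y axis) by group, with lines joining arrays of equal number in a series. The HXK1 to HXK2, GLK1 to HXK2 and HXK1 to GLK1 ratios are higher in rap1 ts than in its wild type on all 3 lines. The lines of the abf1 series run in both directions for these ratios.

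PGI1, the phosphoglucose isomerase gene, had 10692, 21648 and 12608 in the rap1 wild type and 1833, 7385 and 3174 in rap1 ts. All ts arrays were below all wild-type arrays, by ratios of 5.83, 2.93 and 3.97 within pairs. The means were 14983 ± 5851 and 4131 ± 2897 (SD, n = 3 each), a log2 fold change of -2.02 (SE 0.46, limma adjusted p = 0.0903; with the block SE 0.24, adjusted p = 0.00319). PGI1 was the 1 member called without the block when an array was left out, at -2.56 without ts array 2 (adjusted p = 0.0251).

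PFK1, the alpha subunit of phosphofructokinase, had 4282, 8900 and 7414 in the rap1 wild type and 565.1, 3903 and 2525 in rap1 ts. The groups did not overlap, and pair 1 had the widest gap, at 7.58-fold against 2.28-fold and 2.94-fold. The log2 fold change was -1.88 (SE 0.57, limma adjusted p = 0.116; with the block SE 0.30, adjusted p = 0.00621), and -1.37 with the block and without pair 1 (adjusted p = 0.0246).

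PFK2, the beta subunit, had 4999, 8954 and 7641 in the wild type and 1519, 6460 and 2846 in rap1 ts. The groups overlapped, since ts array 2 stood above wild-type array 1, but each ts array was below its partner, by 3.29-fold, 1.39-fold and 2.68-fold. The log2 fold change was -1.20 (SE 0.51, limma adjusted p = 0.202; with the block SE 0.26, adjusted p = 0.0128). Its call with the block ended without pair 1 (-0.95, adjusted p = 0.0615) or without pair 3 (-1.09, adjusted p = 0.0647). The subunits did not move by equal amounts on every array: the PFK1 to PFK2 log2 ratio was -0.22, -0.01 and -0.04 in the wild type and -1.41, -0.72 and -0.17 in rap1 ts. Here the ts arrays overlap the wild type only through ts array 3, and no test was made on this ratio, which was chosen after its values were seen.

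PFK26, one of the kinase genes for the activator fructose 2,6-bisphosphate, had 1450, 736.9 and 1508 in the rap1 wild type and 1207, 1279 and 2325 in rap1 ts. The groups overlapped, with arrays 2 and 3 higher in the mutant and array 1 lower. The log2 fold change was 0.38 (SE 0.32, limma adjusted p = 0.490; with the block SE 0.23, adjusted p = 0.239). PFK27, the other such kinase gene, was dim, with signals of 49.2 to 464.0 over the 12 arrays, and its mean level was above that of 12.9% of features (7.32 on the log2 scale, where the filter kept features of at least 8.16). It had 100.2, 160.6 and 464.0 in the rap1 wild type and 49.2, 171.5 and 119.0 in rap1 ts. In the abf1 series it had 135.7, 109.9 and 137.1 in the wild type and 125.2, 112.2 and 409.3 in the mutant, so 1 array of each of 2 groups stood far above the rest.

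**Figure D3:**
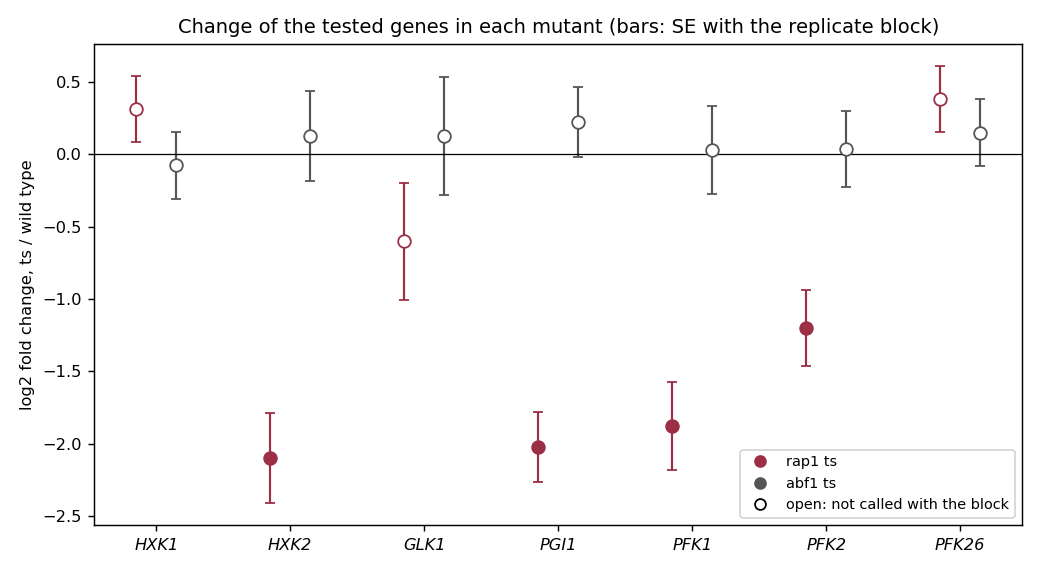
Log2 fold change of each mutant against its wild type (y axis) for the 7 tested genes, with bars of 1 SE from the fit with the replicate block. HXK2, PGI1, PFK1 and PFK2 lie between -2.10 and -1.20 in rap1 ts and are filled because they were called with the block, while every abf1 ts value lies between -0.08 and 0.22.

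Set against all features, the members' counts in rap1 ts read as follows. With the block 4 of 7 tested members were called lower and 0 higher, where 10% of all features were called lower and 15% higher. Without the block the members' counts were 0 and 0, where 0.363% and 0.0427% of features were called. At an unadjusted p under 0.05 limma without the block had 438 features lower and 605 higher. HXK2, PGI1, PFK1 and PFK2 were among those lower, and no member was among those higher. The groups did not overlap, with the mutant lower, for 3 of 7 members, HXK2, PGI1 and PFK1, and for 10.5% of features, and with the mutant higher for 0 members and 16.1% of features. The median log2 fold change was -1.20 over the 7 members and 0.09 over all features. Other array scalings moved the median of all features to between -0.06 and 0.04 and that of the members to between -1.35 and -1.12.

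In abf1 ts the 7 tested members had log2 fold changes between -0.08 and 0.22. HXK2 had 5414, 4927 and 3208 in the wild type and 2688, 6435 and 6463 in the mutant, with array 1 lower and arrays 2 and 3 higher (log2 fold change 0.13, SE 0.53, limma adjusted p = 1.00; blocked interval -0.56 to 0.82). PGI1 had 9485, 13666 and 6600 against 7746, 14849 and 11754, again lower on array 1 alone (log2 fold change 0.22, blocked interval -0.32 to 0.76). GLK1 had 4630, 8097 and 3250 against 3640, 8102 and 5367 (log2 fold change 0.13).

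PFK1 had 3541, 5873 and 4483 in the abf1 wild type and 2868, 5178 and 6697 in abf1 ts, and PFK2 had 3073, 7124 and 4156 and then 2445, 6182 and 6458. Both subunits were lower in the mutant on arrays 1 and 2 and higher on array 3, and their log2 fold changes were 0.03 each. PFK26 had 1682, 1730 and 1949 in the wild type and 2031, 1733 and 2203 in the mutant (0.15), and over all 12 arrays its highest signal was 3.16-fold its lowest, the smallest such range of the 8 members. On array 1 the mutant was lower for HXK2 (2.01-fold), PGI1 (1.22-fold), GLK1 (1.27-fold), PFK1 (1.23-fold), PFK2 (1.26-fold) and HXK1 (1.09-fold). PFK26 was higher there, and on array 3 each tested member but HXK1 was higher. Abf1 ts array 1 had its group's highest 3' to 5' ratios, at 32.7 for ACT1, 16.2 for SPT15 and 337 for SRB4. Arrays 2 and 3 had 3.47 and 4.41, 4.51 and 3.68, and 121 and 45.4. The part of these ratios in the falls on array 1 was not tested.

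No member was called in abf1 ts, without or with the block, and the groups overlapped for all 7. Over all features 0.0427% were called lower and 0% higher without the block, and 0.213% and 0% with it. Groups did not overlap, with the mutant lower or higher, for 5.33% and 2.28% of features. At an unadjusted p under 0.05 limma had 132 features lower and 13 higher, none of them a member. The median was 0.13 over the members and -0.03 over all features.

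The rap1 and abf1 effects, which share no array, were compared directly. With the block the change in rap1 ts was more negative than that in abf1 ts for HXK2, by 2.23 on the log2 scale (blocked SE 0.44, limma adjusted p = 0.0260), for PGI1, by 2.24 (blocked SE 0.34, adjusted p = 0.0180), and for PFK1, by 1.91 (blocked SE 0.43, adjusted p = 0.0353). PFK2 missed the threshold at a difference of -1.23 (adjusted p = 0.0607), as did GLK1 at -0.73 (adjusted p = 0.417), HXK1 at 0.39 (adjusted p = 0.449) and PFK26 at 0.23 (adjusted p = 0.663). So 3 of 7 members were called in the negative direction and 0 in the positive, where 2.9% and 6.23% of all features were. Without the block 0% of features and no member were called in either direction, with 211 features negative and 385 positive at an unadjusted p under 0.05 in limma. HXK2, PGI1 and PFK1 were among those negative, and no member was among those positive. The blocked count rested on the pairs: it was 1, 5 and 0 without rap1 pair 1, 2 or 3, and 2, 1 and 0 without abf1 pair 1, 2 or 3. The share of all features called was not taken with a pair left out, so these counts have no background beside them.

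Between the wild types, both shifted to 37 C, no member was called by limma (0% of features called either way; 138 features lower and 18 higher in the rap1 wild type at an unadjusted p under 0.05). HXK2, PGI1, PFK1 and PFK2 had log2 differences of 0.48, 0.59, 0.53 and 0.64 between the rap1 and the abf1 wild type, and HXK1, GLK1 and PFK26 of -0.35, -0.58 and -0.60. PFK26 was the 1 member whose wild-type groups did not overlap, with all 3 rap1 arrays lower (SE 0.32, adjusted p = 0.966), as were 7.19% of features, against 2.03% with the rap1 arrays higher. The 4 genes that fell in rap1 ts with the block were thus the 4 members with a positive difference here, none of it past the test, and the rap1 ts comparison and this one share the rap1 wild-type arrays.

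HXK1 varied most between arrays of different number, not between groups. On abf1-series arrays 1, 2 and 3 it had 2285, 14731 and 3081 in the wild type and 2097, 14145 and 2982 in abf1 ts, so that the arrays numbered 2 stood far above the others and partners differed by at most 1.09-fold (log2 fold change -0.08). Of its sum of squares over the 12 arrays, 91.0% lay between the numbers of the abf1 series and 2.42% between the 4 groups. HXK2 and PGI1 were the reverse, with 61.6% and 66.2% between groups. For PFK1, PFK2, GLK1, PFK26 and PFK27 between 21.5% and 49.9% lay between groups.

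The abf1-series arrays numbered 2 were above all 10 other arrays for 2 of 8 members, HXK1 and GLK1, and for 3.78% of features. EMI2, a relative of GLK1, had 6791 and 7813 there and 1243 to 2883 elsewhere. PGM2, the major phosphoglucomutase gene, had 5932 and 6793 there and 509.8 to 2594 elsewhere, and TPS2, a trehalose phosphatase gene, 5369 and 5524 against 406.9 to 2592. The labels say nothing that sets these arrays apart, and the cause was not tested.

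**Figure D4:**
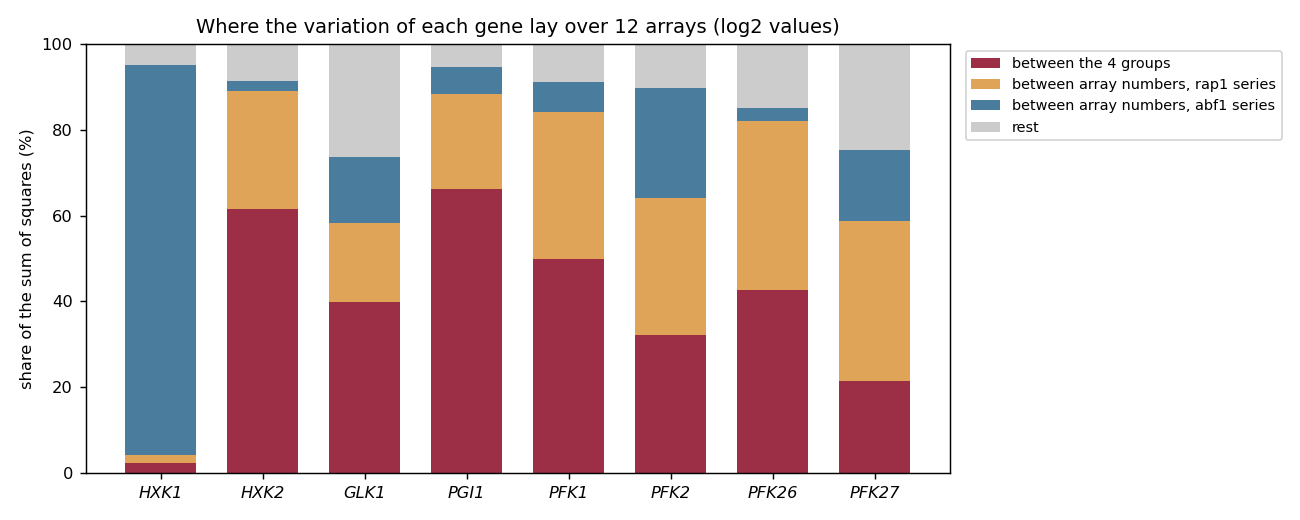
Share of each gene's sum of squares over 12 arrays (y axis, percent of log2 values) between the 4 groups, between array numbers in each series, and the rest. HXK1 is almost all between the numbers of the abf1 series (91.0%), while HXK2 and PGI1 lie mostly between groups (61.6% and 66.2%).

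The 5 genes outside the members whose log2 values followed each hexokinase gene most closely over the 12 arrays, of 4536 single-gene features, did not overlap. With HXK2 they were RVS167, an actin-binding endocytosis gene (Pearson r = 0.967), GSR1 (0.965), the ergosterol synthesis genes ERG25 (0.959) and ERG1 (0.952), and BET2, a prenyltransferase subunit gene (0.948). With HXK1 they were GSY1, a glycogen synthase gene (0.946), EMI2 (0.909), GLG1, a glycogen-priming gene (0.890), the hexose transporter gene HXT7 (0.879) and the transcription factor gene USV1 (0.877). Since 91.0% of the sum of squares of HXK1 lay between the numbers of the abf1 series, its list mainly reflects the arrays numbered 2 there. Both lists are descriptions over arrays that share their groups and numbers. RVS167, GSR1, ERG25, ERG1 and BET2 were picked for following HXK2, which itself fell in rap1 ts, over these same arrays. Their own fall with the block (limma adjusted p of 0.00956, 0.00799, 0.00602, 0.0173 and 0.0285) thus follows largely from that choice and is no separate result. Of all features, 10% were called lower with the block. The 5 genes nearest HXK1 were not called.

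Among the later, triose-phase enzymes of glycolysis, 11 of 13 listed genes were tested, and TDH2 and PYK2 were left out, the first for want of a probe set of its own and the other as too dim. In rap1 ts 2 of the 11 fell with the block and 0 rose, where 10% of all features were called lower and 15% higher. Of the 11, 10 had a value below 0, as did 44.1% of all features, and the median log2 fold change was -0.33, against 0.09 over all features. ENO1, an enolase gene, had 9990, 31606 and 16908 in the wild type and 1281, 16710 and 2988 in rap1 ts (log2 fold change -2.12, limma adjusted p = 0.147; with the block 0.00862), on a probe set of a type that can pick up similar sequences. PGK1, the phosphoglycerate kinase gene, had -1.26 (adjusted p = 0.190; with the block 0.0159). The others lay between -0.68 and 0.49, among them TPI1 at -0.18, TDH3 at -0.18 and the pyruvate kinase gene CDC19 at -0.33.

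Of the enzymes that branch from glucose 6-phosphate, 10 of 10 were tested in rap1 ts, and 1 fell with the block, the same share as the 10% of all features called lower. That was UGP1, which makes UDP-glucose (log2 fold change -1.36, limma adjusted p = 0.190; with the block 0.00884), and the list's median was -0.18. Of the 4 hexokinase relatives and opposing phosphatases, EMI2 and FBP26 were bright enough to test and had 0.16 and 0.20, and neither was called. Among 16 genes of glucose repression and its targets 1 fell with the block, a share below the 10% of all features. It was the high-affinity hexose transporter gene HXT2 (-2.20, limma adjusted p = 0.0959; with the block 0.00683). MIG1, the glucose repressor that works with Hxk2, had 0.33 (adjusted p = 0.604; with the block 0.357), and SUC2, the invertase gene that this pathway represses, had 0.23; the median of the 16 was 0.11.

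The regulators of glycolytic promoters were not called in rap1 ts, in 4 of 6 listed genes that could be tested. GCR1 had -0.62 (limma adjusted p = 0.333; with the block 0.0571), GCR2 0.50, RAP1 -0.12 and ABF1 -0.46. For GCR1 the groups did not overlap, with the mutant lower, as for 10.5% of features. TYE7 and REB1 were too dim to test. TYE7 had 273.4, 134.1 and 487.4 in the rap1 wild type and 176.2, 71.9 and 188.4 in rap1 ts. REB1 had 152.8, 213.9 and 249.5 and then 60.3, 76.5 and 107.8, without overlap. A ts allele changes the protein, so RAP1 RNA does not check the labels. In abf1 ts none of the tested genes of these 5 lists was called, with or without the block. ABF1 itself had 1001, 602.8 and 1423 in the abf1 wild type and 3263, 1707 and 4557 in abf1 ts. The groups did not overlap, as for 2.28% of features with the mutant higher. Its log2 fold change was 1.61 (limma with the block, adjusted p = 0.102). The rap1 minus abf1 effect of ABF1 was called with the block, at -2.07 (limma adjusted p = 0.0344), as were 2.9% of features in that direction.

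**Figure D5:**
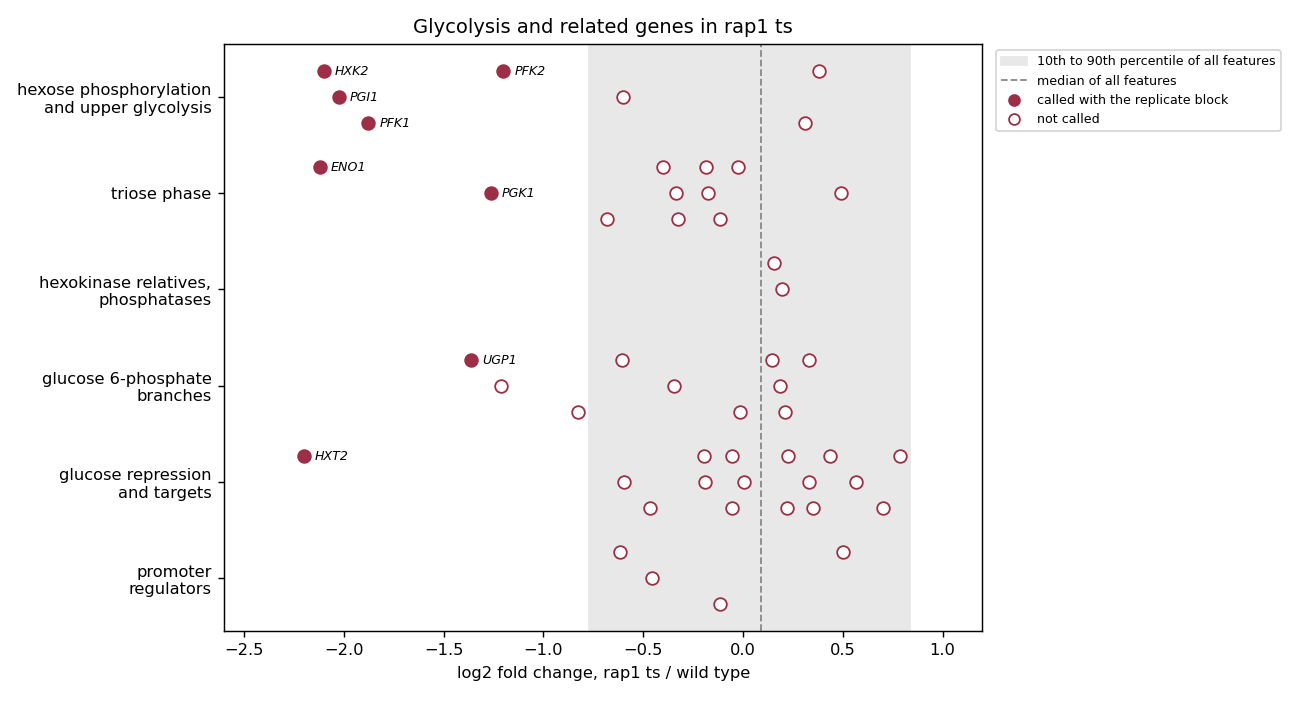
Log2 fold change in rap1 ts against its wild type (x axis) of each tested gene of the members and of 5 related lists, filled where called with the replicate block, beside the 10th to 90th percentile of all features (grey, -0.77 to 0.83). The 8 filled genes all lie at -1.20 or lower, and 4 of them are members.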

How the data were processed

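Per the submitters' processing notes, the authors made the deposited intensity values with MAS5, of unstated version and settings. Trimmed means per array, leaving off 2% of probe sets at each end, were 1500.7 to 1501.3, so arrays had been scaled to a common mean, and medians of non-control signals were 390.4 to 598.3. Precision is limited by the number of arrays.

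Of 9335 probe sets, 60 were controls, 6504 named 1 gene, 328 several and 2443 none here, by the platform annotation. The probe set of highest mean stood for each gene or gene set. Features under the 20th percentile of mean log2 value were left out, which kept 4687 of 5859. The offset of 13 is the 10th percentile of non-control values. limma 3.58.1 in R 4.3.3 fitted 4 group means over all arrays with a variance trend and Benjamini-Hochberg adjustment over all features. Array numbers were taken to pair arrays within a series because all 6 same-number correlations exceeded 0.1, a finding from the data and not from the labels. A block within each series cannot carry the comparison of the wild types, which is given unblocked. Pair-free comparisons of 3 against 3 arrays used exact permutation tests.

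On simulated data for the rap1 comparison, 50 of 4687 features had a true log2 change of -2. Of these, 72% were recovered without the block and 96% with it. For -1 the shares were 32% and 54%, of 50. The simulation gave arrays of equal number a shared spread, so the gain with the block was built in. Its noise was drawn separately for each feature, with variances averaged over both series, so these shares need not hold for the real rap1 arrays. Nor does the simulation show that the numbers pair the real arrays. The members and lists were chosen with earlier results of these data known. Named genes were the members, called genes of the lists or the largest change in each, and the 5 features nearest HXK1 and HXK2. Further genes of the lists were named outside this rule, among them TPI1, TDH3, CDC19, MIG1, SUC2, PGM2 and TPS2. Promoter and protein sequences were not used here. Alternatives covered scaling, offset, filter, probe set joining, variance model, fold, blocks and leaving out arrays.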

Additional observations from a re-analysis of the deposited data

Results flagged for a closer look

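Members whose change differed between the mutants by the test of that difference were HXK2, PGI1 and PFK1, with rap1 minus abf1 effects of -2.23, -2.24 and -1.91 on the log2 scale (limma with the replicate block, adjusted p = 0.0260, 0.0180 and 0.0353). Without the block the adjusted p was 0.336, 0.255 and 0.374. In rap1 ts each of these genes was lower in 3 of 3 pairs, and in abf1 ts HXK2 and PGI1 were lower in 1 of 3 pairs and PFK1 in 2 of 3. Groups of 3 arrays were too small to be searched for single arrays far from the rest.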

How the results depend on the processing

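Calls on the members rested on the replicate block. Of the 7 tested members, 4 were called in rap1 ts with the replicate block within each series and 4 with a block over all arrays, against 0 without. In the difference of the mutant effects the counts were 3 and 3, against 0. With the block joined to quantile scaling, to median centring, or to centring on features that are neither ribosomal nor glycolytic (chosen after seeing the data), the rap1 ts counts were 4, 4 and 4, while the difference had 3, 4 and 4 called. Leaving out arrays singly or in pairs gave from 0 to 5 members called in rap1 ts and from 0 to 5 in the difference. For the block over all arrays, the joined scalings and the left-out arrays, the share of all features called was not taken. In abf1 ts and between the wild types 0 were called under every alternative run. Of the 25 alternatives in rap1 ts, HXK2 was called in 8 (log2 fold change -2.59 to -1.52), PGI1 in 9 (-2.56 to -1.56), PFK1 in 8 (-2.44 to -1.06) and PFK2 in 6 (-1.74 to -0.70), all below 0. HXK1 lay between -0.05 and 0.62 and GLK1 between -1.32 and 0.06, each changing sign. The 6 within-array ratios moved by less than 1 SD under each alternative. For the HXK1 to HXK2, GLK1 to HXK2 and HXK1 to GLK1 ratios in rap1 ts, the sign-flip test over 3 pairs gave an exact p = 0.25, the smallest it can give. Over all arrays the replicate block changed the calls on HXK2, PGI1, PFK1 and PFK2 and on no other member. GLK1 was called with the block in rap1 ts (-1.32, adjusted p = 0.0157) and in the difference (-1.45, adjusted p = 0.0385) without rap1 pair 2.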
